A study of Mus musculus with 24 samples.

Results

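Small RNA from the nucleus accumbens (NAc) of male and female mice was examined for miR precursors that moved in the same direction after stress in both sexes. All 12 small RNA libraries of the series' 24 libraries were used, 6 from stressed and 6 from unstressed mice, and the stress effect was estimated across them with sex as a covariate. Of the 1180 precursors counted, 500 had enough reads to be tested. A precursor is described here as moved where the stress effect had an unadjusted p under 0.05 and the difference had the same sign in males and in females, which selected 50 precursors.

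The mice were C57BL/6J of 9 weeks by the labels, and males and females were either exposed to subchronic variable stress (SCVS) or left nonstressed. In SCVS foot shock, tail suspension and restraint alternate over consecutive days, by the study's methods in a fixed order. Each of the 4 groups (nonstressed male, stressed male, nonstressed female and stressed female) had 3 libraries, with 10 punches from 5 mice combined in each, so that differences among single mice cannot be seen. By the study's methods the females were in estrus or proestrus and tissue was taken the day after the last stressor. Libraries held 5086554 to 13522287 reads assigned to precursors, and the 10 most abundant precursors took 32.7% to 35.6% of them. The mRNA libraries of the same pools held all 8 markers chosen for accumbens and striatal neurons (*Drd1*, *Drd2*, *Penk* and others), summing to 4070 to 5148 CPM (reads scaled to equal library size), so the labelled tissue was present in every group.

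A miR is a short RNA cut from a hairpin precursor. It guides a silencing complex to messenger RNAs, and pairing runs mainly through the seed, the bases near its 5′ end, so that miRs with one seed are expected to share many targets. Precursors often lie in clusters that are transcribed together, and several have copies elsewhere in the genome that give the same mature miR. The NAc is a reward region of the ventral striatum that is widely studied in stress and depression models.

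The sequences below are those of the moved precursors on which the results turn, to show which of them share a seed. They are mature miRs from RefSeq (build GRCm38.p6), written 5′ to 3′ with the seed, bases 2 to 8, in capitals. A mature sequence was matched by name, in the RefSeq sequences used here, for 429 of the 500 tested and for 36 of the 50 moved precursors. A missing match does not mean that RefSeq lacks the sequence. The deposited counts are per precursor, so they do not say which arm of a hairpin the reads came from. For mir-7224 only the 5p arm had a matched sequence, whereas the arm that the paper lists as higher in both sexes is miR-7224-3p.
miR-30c-5p (from mir-30c-1 and mir-30c-2): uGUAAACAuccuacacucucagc
miR-30c-1-3p: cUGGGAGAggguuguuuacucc
miR-30c-2-3p: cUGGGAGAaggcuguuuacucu
miR-23a-3p: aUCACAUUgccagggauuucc
miR-7224-5p: gGGUAGGCcccucagugaaga
miR-1912-3p: cACAGAACaugcagugagaacu
miR-9-5p (from mir-9-1, mir-9-2 and mir-9-3): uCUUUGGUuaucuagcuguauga
miR-329-3p: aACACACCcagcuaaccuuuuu
miR-7a-5p (from mir-7a-1 and mir-7a-2): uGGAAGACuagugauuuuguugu
miR-7b-5p: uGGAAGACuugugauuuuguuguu
miR-148a-3p: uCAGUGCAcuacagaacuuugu
let-7b-5p: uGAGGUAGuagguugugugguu
miR-539-5p: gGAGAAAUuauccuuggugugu
miR-20b-5p: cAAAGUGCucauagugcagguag
miR-195b: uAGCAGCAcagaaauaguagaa
miR-5121: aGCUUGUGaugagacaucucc

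After stress, 19 precursors were higher in both sexes and 31 were lower in both. The precursors with the smallest p were the copies mir-30c-2 and mir-30c-1, about 1.29-fold and 1.28-fold higher, followed by mir-148a, which was lower. Differences were small: among the moved precursors they ran from 0.10 to 0.58 on the log2 scale for those higher in stressed pools and from -0.77 to -0.12 for those lower, beside a median size of 0.09 over all 500 tested. An unadjusted p under 0.05 was reached by 52 precursors, or 10.4% of those tested, of which 19 (3.8%) were higher and 33 (6.6%) lower. Nearly all of these, 50 (10% of the tested; 3.8% higher and 6.2% lower), had one sign in both sexes, which follows in large part from averaging the sexes, since 259 of the 500 tested (51.8%) had one sign in both. Scaled by library size alone, 31 of 51 moved precursors were higher after stress, so the excess of falling ones changed with the scaling.

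No precursor passed a Benjamini-Hochberg adjusted p of 0.05 in limma, the smallest being 0.0739, against 52 at an unadjusted p under 0.05. With edgeR's quasi-likelihood test the count was again 0, with 47 unadjusted, and with DESeq2 it was 3 (mir-30c-1, mir-30c-2 and mir-23b), with 45 unadjusted. By the study's own rule, an unadjusted p under 0.05 with a fold change of at least 1.3, 14 precursors (2.8% of the tested) were regulated, 3 higher (0.6%) and 11 lower (2.2%), and 12 of the 14 had one sign in both sexes. Of the 14, 3 had a mean under 10 reads per library. At the edge of the rule on p, mir-101c lay just inside (adjusted p = 0.455, limma) and mir-484 just outside (0.13 on the log2 scale, adjusted p = 0.483, limma), and mir-30c-2, at 1.29-fold, lay just under the fold rule.

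**Figure D1:**
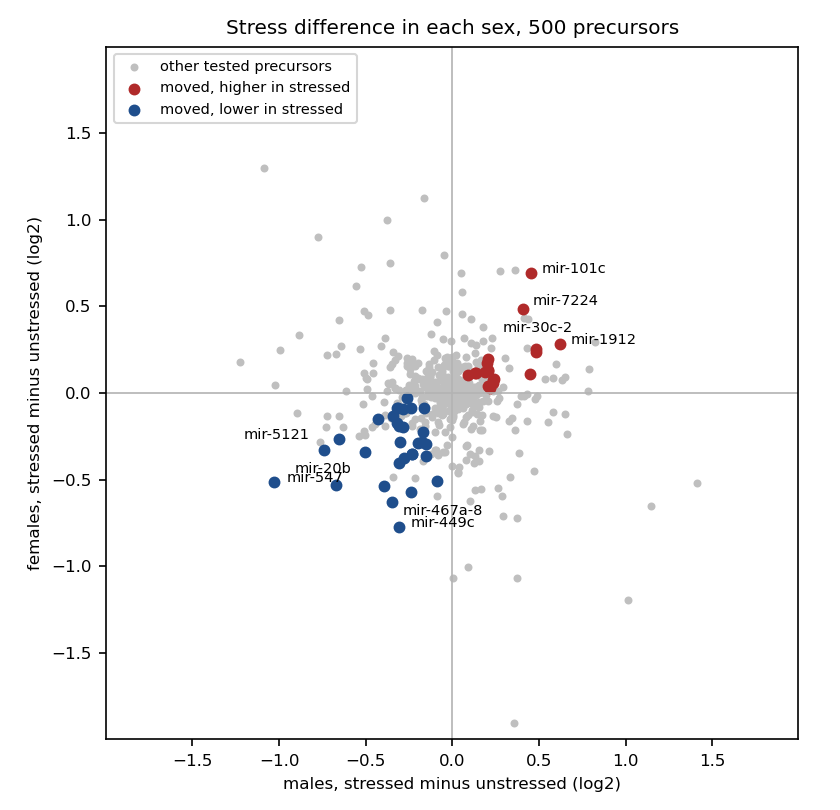
The stress difference in males (x axis, log2) is plotted against that in females (y axis, log2) for the 500 tested precursors, each a point. The 19 red points rose in both sexes and the 31 blue points fell in both, while the grey points spread over all 4 quadrants, with 259 of all 500 showing one sign.

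The effect was also estimated within each sex, from libraries that the sexes do not share. In males 62 precursors had an unadjusted p under 0.05 (12.4% of the tested), of which 35 (56.5%) had the same sign in females. In females there were 40 (8%), of which 15 (37.5%) had the same sign in males. An unadjusted p under 0.05 in both sexes was found for 5 precursors of one sign (1% of the tested) and for 2 of opposite signs (0.4%). Among the 50 moved precursors the difference was larger in size in males for 33, and 27 had an unadjusted p under 0.05 in males and 13 in females. Differences were also larger in males over all 500 tested, with a median size of 0.14 in males and 0.11 in females on the log2 scale. The sex-by-stress interaction, the difference between the female and the male effect, had an unadjusted p under 0.05 for 1 of the 50 (mir-21a, 0.22 in males and 0.03 in females on the log2 scale, adjusted p = 0.542, limma), beside 44 of the 500 (8.8%).

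The family of mir-30c, the precursors with the smallest p, is described first. Its members share a seed, are abundant in brain, and are encoded as pairs on several chromosomes. In mir-30c-2 (NCBIM37, chr1:23298540-23298623, plus strand, outside annotated genes) the nonstressed male pools held 1281, 1034 and 1413 CPM and the stressed male pools 1865, 1768 and 1538. The nonstressed female pools held 1296, 1134 and 1176 CPM and the stressed female pools 1456, 1338 and 1504. Within each sex every stressed pool was above every nonstressed pool, though the highest nonstressed male pool was above 1 stressed female pool. The difference was 0.37 on the log2 scale (SE 0.08, 95% interval 0.20 to 0.53), 0.48 in males and 0.26 in females, with an adjusted p of 0.0739 in limma. An exact permutation test within sex gave two-sided p = 0.005, the smallest that the 400 arrangements allow, before any adjustment for the 500 tests.

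The copy mir-30c-1, in an intron of *Nfyc* (chr4:120442139-120442227, minus strand), held 821, 688 and 920 CPM in nonstressed and 1216, 1161 and 994 CPM in stressed males. It held 842, 760 and 777 CPM in nonstressed and 942, 869 and 985 CPM in stressed females. It rose by 0.36 (SE 0.08, adjusted p = 0.0739, limma) with no overlap within either sex. It is not a second observation, because the copies share miR-30c-5p: the ratio of mir-30c-2 to mir-30c-1 stayed between 1.49 and 1.56 in all 12 libraries, and how reads that fit both copies were assigned is not given in the sources used here. The interaction for mir-30c-2 was -0.23 (95% interval -0.55 to 0.09, adjusted p = 0.683, limma). This interval reaches from a much smaller effect in females, or none, to one slightly larger than in males.

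The related mir-30b also rose, from 347 ± 27.1 to 399.5 ± 21.5 CPM in males and from 334 ± 14.9 to 364 ± 16.7 CPM in females (mean ± SD, n = 3 pools), a difference of 0.16 (adjusted p = 0.271, limma). The more abundant members were nearer to 0: mir-30a, which carries the same seed GUAAACA, had a difference of 0.06 (adjusted p = 0.674, limma) and mir-30d one of -0.01 (adjusted p = 0.928, limma). Of the 5 tested members of the family, of 7 in the file, 3 rose and none fell, beside 3.8% higher and 6.2% lower over all tested. The 3 were mir-30b and the mir-30c copies, which are not separate observations. The median, with both copies counted, was 0.16, beside -0.01 over all tested precursors. The remaining members, mir-30e and mir-30f, were listed at 0 reads in all libraries.

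**Figure D2:**
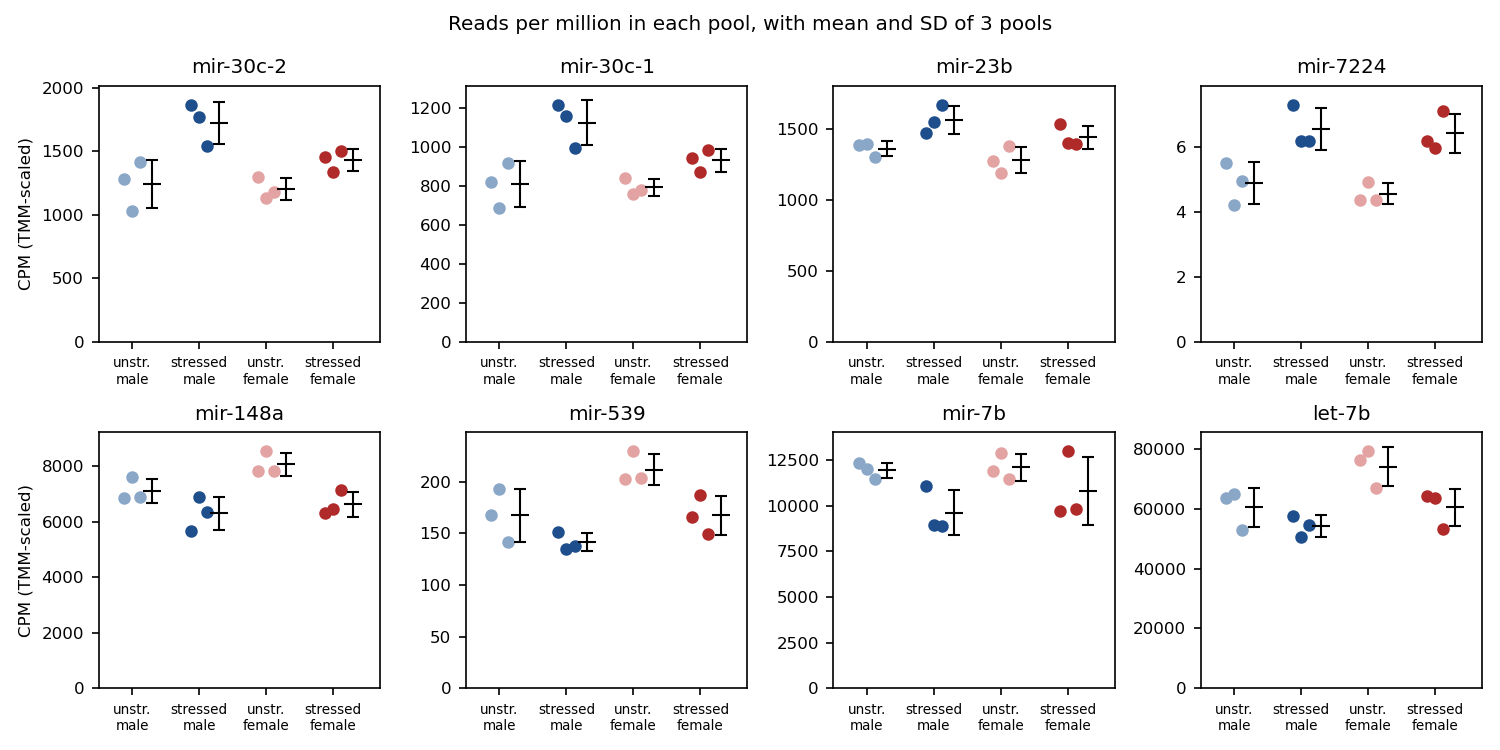
TMM-scaled CPM (y axis, from 0) of 8 moved precursors in each of the 12 pools, as points by group, with the mean and SD of 3 pools beside them. For mir-30c-2, mir-30c-1, mir-23b and mir-7224 every stressed pool lies above every nonstressed pool of its sex, and for mir-148a, mir-539, mir-7b and let-7b the stressed pools lie lower on average, with overlap in at least one sex.

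Without overlap in either sex and in one direction stood 7 precursors (1.4% of the tested), all of them higher after stress, while 5 (1%) were separated in opposite directions in the sexes. Besides mir-30c-1 and mir-30c-2 these were mir-23b, mir-7224, mir-143, mir-329 and mir-350. In 3 of them, mir-7224, mir-329 and mir-350 (0.6% of the tested), all 6 stressed pools lay above all 6 nonstressed pools. No precursor was separated downwards in both sexes.

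mir-23b, a miR known from astrocytes, lies with mir-27b in an intron of *2010111I01Rik* (chr13:63401792-63401865, plus strand). It held 1389, 1395 and 1303 CPM in nonstressed and 1475, 1550 and 1670 CPM in stressed males. In females it held 1275, 1192 and 1379 CPM without stress and 1534, 1400.0 and 1392 CPM after stress. The groups did not overlap within a sex, with a difference of 0.18 (SE 0.05, adjusted p = 0.223, limma), 0.20 in males and 0.17 in females. Its relative mir-23a on chromosome 8, which in the sequence above carries the seed UCACAUU, rose by 0.20 on the log2 scale, 0.20 in males and 0.19 in females (adjusted p = 0.275, limma). The partners transcribed beside them were nearer to 0: mir-27b, 155 bases from mir-23b, had a difference of 0.07 (adjusted p = 0.69, limma), and mir-27a, 80 bases from mir-23a, had -0.08 (adjusted p = 0.735, limma).

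mir-7224, on chromosome 2 (chr2:67513514-67513573, plus strand, outside annotated genes), was one of the few precursors past the fold rule. Its pools held 5.50, 4.21 and 4.95 CPM in nonstressed and 7.29, 6.18 and 6.17 CPM in stressed males. Female pools held 4.37, 4.93 and 4.38 CPM without stress and 6.17, 5.98 and 7.10 CPM after stress. The sexes agreed closely in level, and the difference of 0.45 (SE 0.11, adjusted p = 0.154, limma) was 0.40 in males and 0.49 in females. It rests on a mean of 49.1 reads per library.

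mir-1912, from an intron of the serotonin receptor gene *Htr2c* on the X chromosome (chrX:143443984-143444070), rose by 0.45 (SE 0.14, adjusted p = 0.223, limma). It held 5.05, 4.02 and 4.0 CPM in nonstressed and 6.35, 7.80 and 6.17 CPM in stressed males, which did not overlap. In females, at 3.53, 4.35 and 5.02 CPM against 5.64, 4.13 and 5.75 CPM, the groups overlapped. The other 4 miRs of the *Htr2c* introns did not move with it, at -0.06 to 0.06, and mir-764, which lies 7075 bases away, had a difference of 0.04 (adjusted p = 0.883, limma). The other precursor that was higher and past the fold rule, mir-101c, had 0.57 to 1.70 CPM and a mean of only 10.8 reads, and its rise of 0.58 (SE 0.27, adjusted p = 0.455, limma) did not reach an unadjusted p of 0.05 under 16 of 25 alternatives.

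The separated precursors of smaller change were abundant or tight within groups. mir-143, known from smooth muscle, rose by 0.12 (SE 0.04, adjusted p = 0.31, limma), from 4880 ± 84.6 to 5338 ± 333 CPM in males and from 4699 ± 84.2 to 5091 ± 159 CPM in females. mir-350, in an intron of *Cep170* (chr1:178702456-178702554, minus strand), ran from 50.6 to 55.0 CPM in nonstressed and from 55.7 to 62.8 CPM in stressed pools. Its difference of 0.12 (adjusted p = 0.493, limma) did not reach an unadjusted p of 0.05, so that it was separated without being counted as moved. These values show that separation and the model's p pick partly different precursors.

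Downwards, mir-148a had the smallest p. It lies on chromosome 6 (chr6:51219811-51219909, minus strand, outside annotated genes) and is among the abundant miRs here. Its pools held 6853, 7605 and 6872 CPM in nonstressed and 5676, 6874 and 6334 CPM in stressed males, which overlapped narrowly, and 7806, 8521 and 7827 against 6304, 6435 and 7142 CPM in females, which did not. It fell by 0.23 on the log2 scale (SE 0.06, adjusted p = 0.154, limma), with -0.18 in males and -0.28 in females. The other precursors matched to a sequence with the seed CAGUGCA were nearer to 0, mir-148b at 0.01 (adjusted p = 0.943, limma) and mir-152 at 0.03 (adjusted p = 0.883, limma).

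The 3 tested precursors of the mir-7 family all fell, beside 6.2% lower over all tested. This family, whose members share the seed GGAAGAC, is known for its abundance in the hypothalamus and in neuroendocrine cells. mir-7b (chr17:56382411-56382521) held 12314, 12006 and 11467 CPM in nonstressed and 11055, 8929 and 8867 CPM in stressed males, and 11921, 12909 and 11467 against 9689, 12972 and 9804 CPM in females. The male groups did not overlap, whereas 1 stressed female pool was above all nonstressed female pools. The paper lists the arm miR-7b-3p as higher in stressed males, and counts per precursor do not separate the arms. The difference was -0.25 (SE 0.08, adjusted p = 0.223, limma) for mir-7b, and it was -0.20 for both mir-7a-1, in an intron of *Hnrnpk*, and mir-7a-2 (adjusted p = 0.31 for each, limma), copies that share miR-7a-5p. Under scaling by library size alone the direction was kept but 1 of the 3 had an unadjusted p under 0.05, and under quantile normalization 2 had; without nonstressed female pool 3 it was 1.

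Of the let-7 family, whose members are among the most abundant miRs of these libraries, let-7b fell. It held 63589, 64844 and 53015 CPM in nonstressed and 57713, 50570 and 54408 CPM in stressed males, which overlapped, and 76303, 79140 and 66858 against 64375, 63627 and 53367 CPM in females, which did not. The difference was -0.22 (SE 0.07, adjusted p = 0.223, limma), and it shrank to -0.06 under quantile normalization (adjusted p = 0.747, limma). let-7k fell by 0.26 on the log2 scale (adjusted p = 0.223, limma). Of 14 tested members these 2 fell and none rose, with a median of 0.00, beside 6.2% lower and 3.8% higher over all tested. Of 11 tested precursors matched to a sequence with the seed GAGGUAG, let-7b was the 1 that moved. let-7k had no matched sequence and is not among the 11.

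mir-539, mir-345 and mir-3059 completed the precursors of smallest p. mir-345 fell by 0.24 (adjusted p = 0.223, limma), from 591 ± 59.4 to 483 ± 44.7 CPM in males and from 613 ± 34.5 to 539 ± 69.3 CPM in females. mir-3059, in an intron of *Mgat4c* on chromosome 10, fell by 0.19 (adjusted p = 0.223, limma), with -0.29 in males and -0.09 in females. mir-5121, which overlaps an exon of the ribosomal protein gene *Rpl13a* on the same strand (chr7:52382288-52382361), so that fragments of that mRNA cannot be told apart from the miR, fell by 0.46 (SE 0.14, adjusted p = 0.223, limma). It held 7.14, 9.77 and 7.81 CPM in nonstressed and 4.12, 5.52 and 6.48 CPM in stressed males, which did not overlap, and 5.22 to 6.86 CPM against 4.94 to 5.55 CPM in females, which did.

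**Figure D3:**
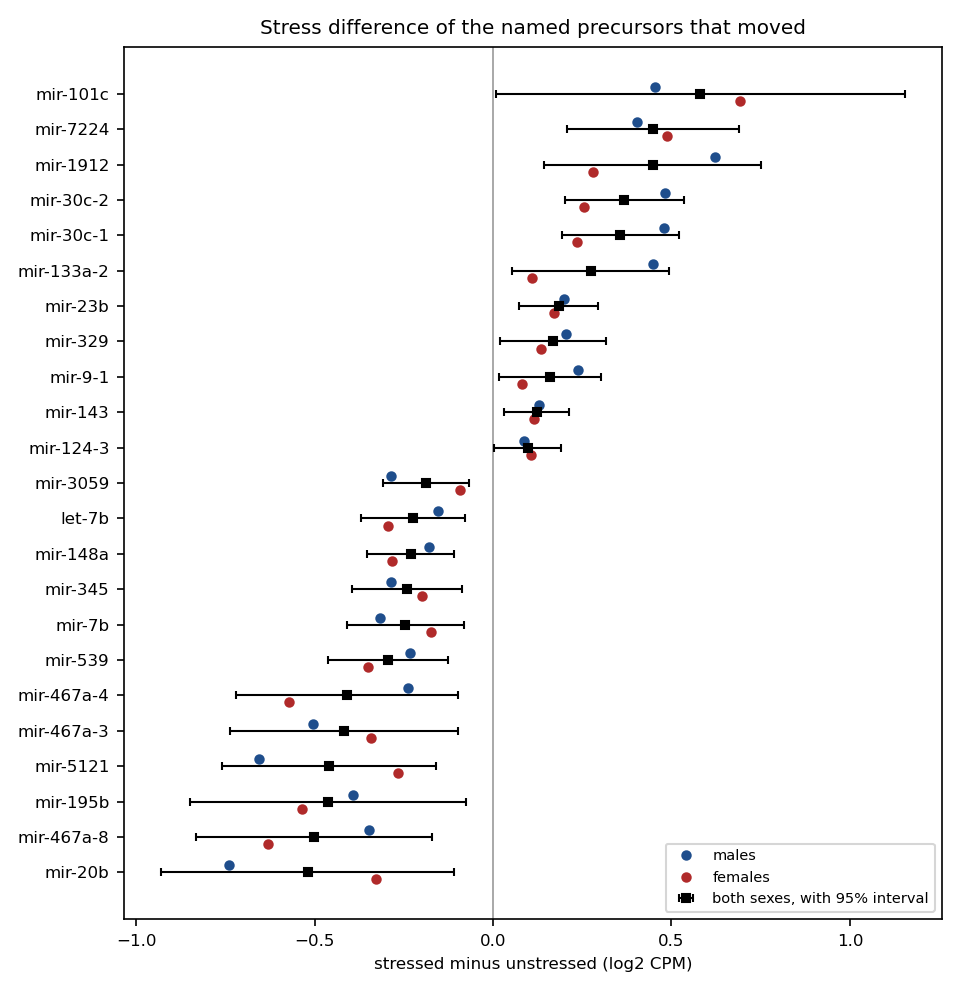
The stress difference (x axis, log2 CPM) of the 23 named precursors that moved, with the estimate over both sexes and its 95% interval in black, males in blue and females in red. Blue and red points lie on the same side of 0 in every row because the precursors were chosen for this, and intervals are widest for mir-101c, mir-20b and mir-195b.

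Among tested precursors with a matched sequence, some seeds had 1 member that moved. mir-20b, of the X-linked relative of the mir-17-92 cluster, whose members act in cell growth, held 4.31, 2.87 and 3.43 CPM in nonstressed and 1.80, 2.65 and 1.85 CPM in stressed males, which did not overlap. In females, at 3.81, 3.67 and 2.32 against 2.13, 2.28 and 3.24 CPM, the groups overlapped. It fell by 0.52 (SE 0.19, adjusted p = 0.325, limma), on a mean of 23.8 reads, and did not reach an unadjusted p of 0.05 without nonstressed male pool 1. The 4 other tested precursors matched to a sequence with its seed AAAGUGC had differences of -0.07 to 0.04. Of 13 tested members of the clusters mir-20b was the 1 past an unadjusted p of 0.05, beside 10.4% of all tested. mir-195b fell by 0.46 (SE 0.18, adjusted p = 0.338, limma) on 20.2 reads, a call lost under 5 of 26 alternatives. The 6 other tested precursors matched to a sequence with the seed AGCAGCA had -0.05 to 0.13.

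The Sfmbt2 cluster, known from placenta and embryonic cells, is a large run of repeated precursors on chromosome 2. Its families mir-297, mir-466, mir-467 and mir-669 were taken by name. The members named below were not located, so their place in that run was not checked. Of these families 7 of 32 tested members fell and none rose, with 26 of 32 below 0 and a median of -0.18, beside a median of -0.01 over all tested. Over all tested, 6.2% were lower and 3.8% higher. The count rested on single libraries: without stressed female pool 3, 2 had an unadjusted p under 0.05 downwards and 1 upwards, and without stressed male pool 2 or nonstressed female pool 2 there were 4 downwards, as with DESeq2 and with scaling by library size alone. mir-467a-8 fell by 0.50 (SE 0.16, adjusted p = 0.223, limma), from 4.46, 3.83 and 4.57 to 3.77, 3.09 and 3.39 CPM in males and from 4.94, 5.51 and 5.41 to 2.66, 5.26 and 3.15 CPM in females. The male groups did not overlap and the female groups did. mir-467a-4 and mir-467a-3 fell by 0.41 and 0.42 (adjusted p = 0.31 for each, limma), and mir-669o, mir-669h, mir-669c and mir-466d by 0.29 to 0.33. Many members have similar names and belong to a few families, and how reads that fit several of them were assigned is not given, so they cannot be taken as independent. Members of one sign in both sexes numbered 16 of 32, and the median was -0.23 in males and -0.06 in females.

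The Dlk1-Dio3 cluster on chromosome 12, an imprinted region that encodes many brain-expressed miRs, had 47 tested precursors, of which 2 rose (mir-323 and mir-329) and 4 fell (mir-539, mir-495, mir-370 and mir-381), with a median of -0.02. These 6 members are a share near the 10% that moved over all tested, and without nonstressed male pool 2 none had an unadjusted p under 0.05 upwards and 2 had downwards. mir-539 (chr12:110966339-110966412) held 168, 193 and 141 CPM in nonstressed and 152, 135 and 138 CPM in stressed males, and 202, 229 and 203 against 166, 187 and 149 CPM in females, where the groups did not overlap. It fell by 0.29 (SE 0.08, adjusted p = 0.194, limma).

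mir-329 (chr12:110951691-110951787) was higher in all stressed pools, at 93.2 to 120 CPM against 85.1 to 92.5 CPM. It rose by 0.17 (SE 0.07, adjusted p = 0.406, limma), but the upper end of the stressed range is set by stressed male pool 1, and the unadjusted p was not under 0.05 without that pool or without nonstressed male pool 2 or 3. mir-323, 888 bases from mir-329, rose by 0.16 (adjusted p = 0.338, limma). mir-495, 5177 bases from mir-329, fell by 0.20 (adjusted p = 0.33, limma), and mir-381, 1233 bases from mir-539, by 0.12 (adjusted p = 0.448, limma). Along the run from mir-379 to mir-410, 15 located precursors had positive and 17 negative differences.

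**Figure D4:**
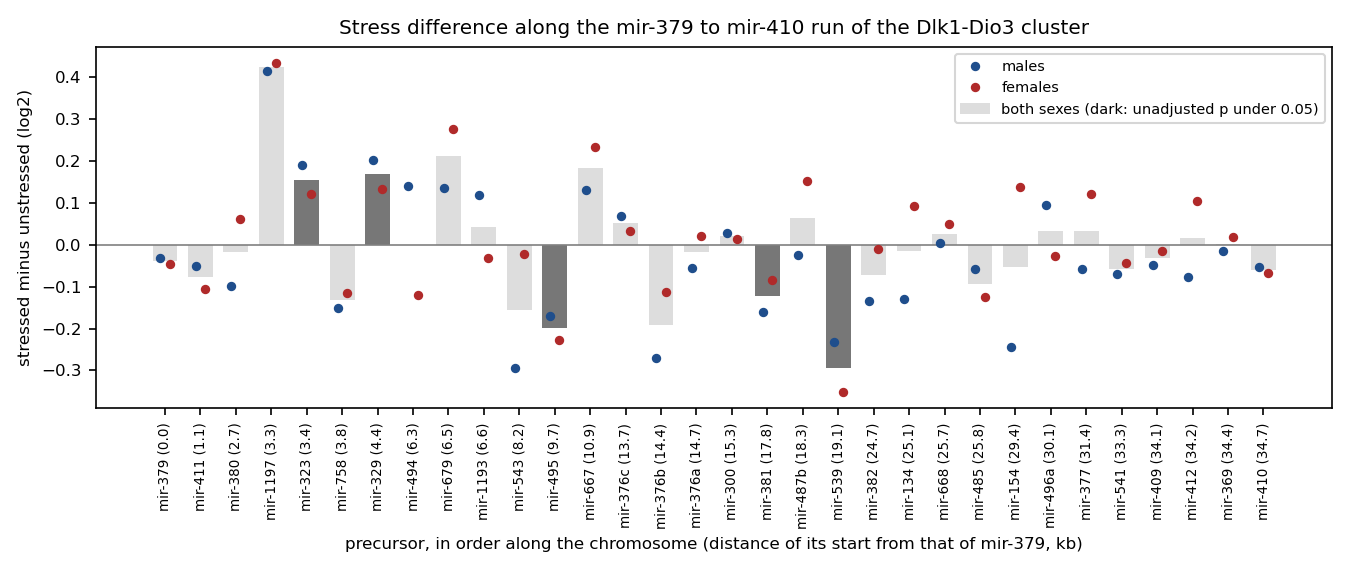
Stress difference (y axis, log2) of 32 tested precursors in their order along the mir-379 to mir-410 run, with the distance of each start from that of mir-379 in kb. Bars give both sexes, dark where the unadjusted p was under 0.05, and points give males and females; mir-323 and mir-329 stand above 0 and mir-495, mir-381 and mir-539 below it.

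Among 13 tested neuron-enriched miRs, 4 rose and none fell, with a median of 0.09, beside 3.8% higher and 6.2% lower over all tested. None had an unadjusted p under 0.05 upwards when nonstressed male pool 1 or 2, nonstressed female pool 2, or stressed female pool 1 or 3 was left out, and without stressed female pool 1 there were 3 downwards. With DESeq2 there were 6 upwards and with edgeR 3. All 4 are copies of abundant neuronal miRs. The copies mir-9-1, mir-9-2 and mir-9-3, which share both arms, rose by 0.16, 0.16 and 0.15 (adjusted p = 0.409, 0.414 and 0.45, limma) and count as 1 observation, since the ratio of mir-9-1 to mir-9-2 was 0.979 to 1.01 in all libraries. mir-9-1 went from 8997 ± 795 to 10623 ± 1097 CPM in males and from 8998 ± 735 to 9521 ± 753 CPM in females. mir-124-3 rose by 0.10 (adjusted p = 0.45, limma), and its copies mir-124-1 and mir-124-2, at 0.09 each, had adjusted p = 0.498 and 0.493 (limma).

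In the mRNA libraries of the same pools, the 3 markers of cortical glutamatergic neurons *Slc17a7*, *Tbr1* and *Neurod6* were detected, summing to 4.96 to 19.9 CPM in nonstressed males and 45.5 to 185 CPM in stressed males. In females the sum was 19.5 to 341 CPM without stress and 40.6 to 107 CPM with it. Their mean level was added as a further covariate, a fit chosen after the data were seen. Of the 50 moved precursors, 33 kept an unadjusted p under 0.05 in this fit. All 50 kept the sign of the estimate over both sexes. By the full rule, which also asks for the same sign in males and in females, 28 of the 50 still counted as moved. mir-30c-2 then had a difference of 0.32 (adjusted p = 0.205, limma) and mir-148a one of -0.24, and none of the 13 neuron-enriched miRs had an unadjusted p under 0.05. In bulk tissue, fewer cells of a type and less RNA per cell cannot be told apart.

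Markers of other cells among the miRs were mostly not past the test. Of 8 tested muscle miRs all had positive differences over both sexes, with a median of 0.23 (0.43 in males and 0.10 in females). Only 4 of the 8 had one sign in both sexes. Summed over the list, male pools held 339 to 461 CPM without stress and 528 to 674 CPM with it. Female pools went the other way, with 611 to 716 CPM without stress and 485 to 594 CPM with it. Only mir-133a-2 moved upwards, beside 3.8% higher over all tested. It rose by 0.27 (SE 0.10, adjusted p = 0.33, limma), from 13.2 ± 1.91 to 18.2 ± 1.24 CPM in males and from 14.2 ± 0.824 to 15.4 ± 1.80 CPM in females. In the mRNA of the same pools the 4 muscle markers summed to 3.61 to 4.62 CPM, nearly all of it *Acta1*, and *Ckm* and *Myh4* were listed at 0 in some stressed pools; their part in the result was not tested. The single tested red blood cell miR, mir-144, had 0.47 in males and -0.04 in females, and the 4 haemoglobin and haem markers in mRNA summed to 19.3 to 24.4 CPM in nonstressed and 34.5 to 41.3 CPM in stressed males, against 26.4 to 34.2 and 25.6 to 28.5 CPM in females. Their part in the result was not tested. Of 3 tested glia-linked miRs, of 8 in the file, mir-23b and mir-21a rose, beside 3.8% higher over all tested. As given above, the rise of mir-21a was mainly in males. The members not tested were mir-338 and those of the mir-219 family.

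Of 20 tested miRs studied in stress behaviour 1 rose, mir-124-3, beside 3.8% higher over all tested, with a median of 0.03 over the list. The number upwards at an unadjusted p under 0.05 ran from 0, with edgeR or without stressed male pool 3 among others, to 6 without nonstressed female pool 3, and mir-124-3 itself did not reach that p under 11 of 26 alternatives. Of 6 activity-linked miRs and of 4 mir-29 members none had an unadjusted p under 0.05, the members with the smallest p being mir-138-2 (0.08, adjusted p = 0.69, limma) and mir-29b-1 (-0.12, adjusted p = 0.609, limma). The same held for the 5 immune cell and microglial miRs, led by mir-150 (0.16, adjusted p = 0.594, limma). Of 11 tested choroid plexus and ependymal miRs, 1 fell, the low mir-449c (9.25 reads), beside 6.2% lower over all tested. None was downwards by DESeq2, under quantile normalization or under scaling by library size alone. The member of smallest p with a mean of at least 10 reads, mir-449a, had 0.16 (adjusted p = 0.698, limma). The choroid plexus mRNA markers summed to 12.9 to 79.9 CPM in nonstressed males and 9.47 to 13.1 CPM in the other groups, and their part was not tested. Of the 58 tested precursors numbered mir-6896 to mir-7094, a list chosen by number alone, mir-6979 had an unadjusted p under 0.05 but opposite signs in the sexes (0.00 in males and -1.07 in females).

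**Figure D5:**
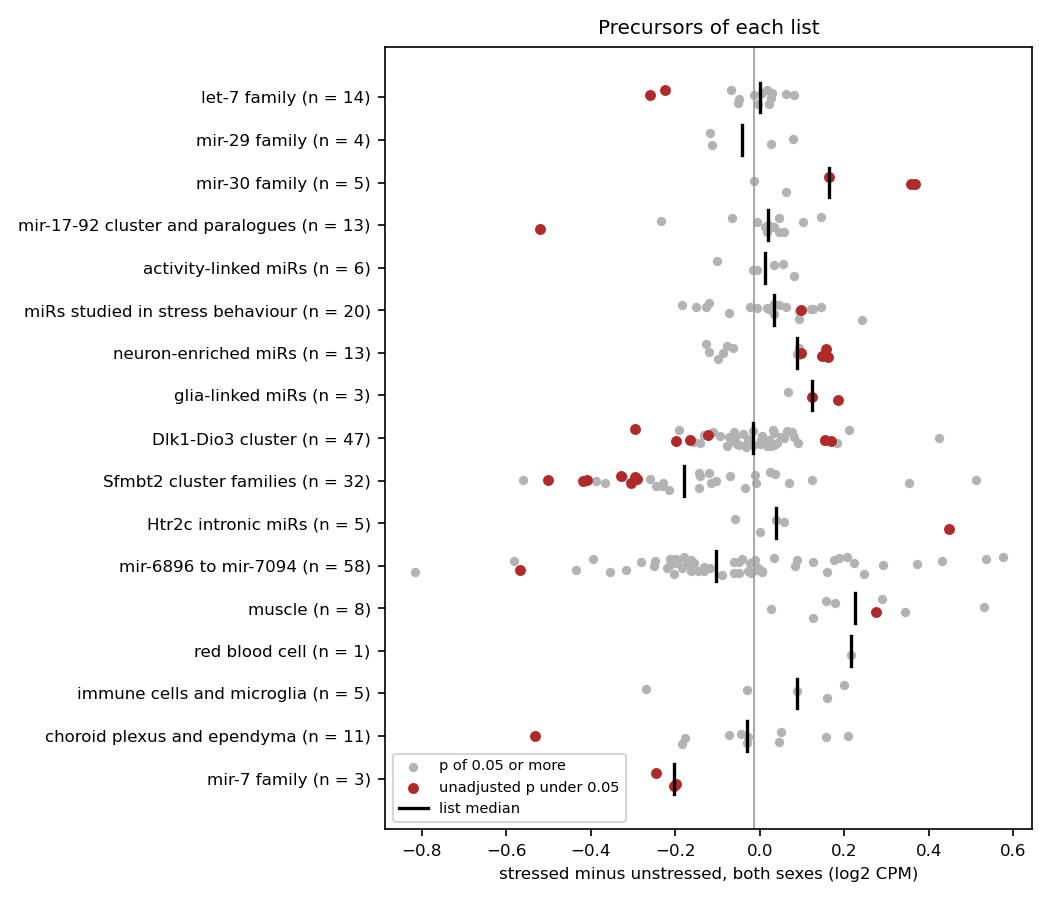
Stress difference over both sexes (x axis, log2 CPM) of every tested precursor in each list, one row per list, with red points at an unadjusted p under 0.05 and a black bar at the list median; the grey line is the median of all 500. The mir-30 family (median 0.16, with both mir-30c copies counted) and muscle miRs (0.23) lie to the right. The mir-7 family (-0.20) and Sfmbt2 cluster families (-0.18) lie to the left. Of the 8 muscle miRs, 4 had one sign in both sexes.

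The moved precursors were more abundant than the rest. The median was 12030 reads per library for those higher in stressed pools and 987 for those lower, beside 265 over all tested, which is a description, as larger counts also give smaller errors. Of the 33 moved precursors located in NCBIM37, 15 (45.5%) had another tested precursor within 10 kb, beside 139 of 403 (34.5%) over all tested. Of the 82 pairs of a moved precursor and such a neighbour, 43 had the same direction. Most of these pairs came from mir-539, mir-495, mir-323, mir-329 and mir-381 of the mir-379 to mir-410 run. They do not describe neighbours in general, and a pair in which both members moved is counted from each side. All 4 groups passed the read filter for 46 of the 50 moved precursors, and 2 passed it only in nonstressed groups.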

How the data were processed

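Small RNA was enriched from pooled NAc punches and sequenced in single reads of 100 bases. According to the study's methods and the submitters' processing notes, the authors dropped trimmed reads shorter than 16 nucleotides, used Bowtie to align those left to mm9 (the assembly also named NCBIM37) and obtained counts by HTSeq. The methods name an annotation of mature miRs, but the deposited small RNA table holds unnormalized read counts in rows named as miRBase precursors, in 12 libraries, so whether a row covers the whole hairpin or its mature arms is not known. How reads that fit several precursors were assigned is not given in the sources used here. A deposited table of raw mRNA counts from the same pools was used for cell type markers only, not all of which are reported here.

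A precursor was kept (500 of 1180) if, in any group, 80% or more of its libraries held over 5 reads. They were scaled by TMM factors and fitted with voom and limma 3.58.1 (edgeR 4.0.16, R 4.3.3) on sex and stress. Fits by sex and the interaction came from a second model with one mean per group. P values were adjusted by Benjamini-Hochberg across the 500. CPM are TMM-scaled. Single precursors were also tested by an exact two-sided permutation of stress labels within sex. Alternatives included edgeR's quasi-likelihood test, DESeq2 1.42.0 and other scalings, filters and left-out libraries. The steps were tested on simulated data. Within each group, every pair of libraries differed by more than sampling noise.

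Named precursors were those past the fold rule with one sign in both sexes, the 10 of smallest p, those separated in both sexes, each list's member of smallest p, and the opposite-sign precursor of smallest p; further copies, seed relatives and neighbours were named after their values were seen. Members, lists and rule were chosen with earlier results of these data known. Coordinates come from exact hairpin matches to NCBIM37 (403 of 500 placed once) and genes from GENCODE. Only 36 of 50 moved precursors had a matched mature sequence, so GC content and length were not compared. Labels do not say whether pools came from separate cohorts, so p values measure the spread between pools.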

Additional observations from a re-analysis of the deposited data

Results flagged for a closer look

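Of 60 groups of 6 pools tested, 30 named precursors in stressed and in nonstressed pools, 6 held a pool whose gap to its nearest neighbour took more of the group's range than Dixon's limit for 6 samples allows, which chance exceeds in about 1 in 20 groups. In mir-329 stressed male pool 1 stood apart at 120 CPM with the next pool at 98.0 CPM (0.796 of the range), and in mir-350 the same pool stood at 62.8 CPM with the next at 58.2 CPM (0.635). In mir-124-3 stressed female pool 2, at 23237 CPM, lay below the next at 25341 CPM (0.652), and nonstressed female pool 2, at 21622 CPM, below the next at 23816 CPM (0.685). In mir-133a-2 nonstressed male pool 3 was low, at 11.1 CPM with the next at 13.3 CPM (0.636). In mir-150 nonstressed male pool 2 was low, at 87.9 CPM with the next at 112.6 CPM (0.652).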

How the results depend on the processing

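Over 778 repeats of the 30 named precursors under the alternatives, none reversed its direction, 702 stayed on the same side of an unadjusted p of 0.05, 57 lost it and 19 gained it. mir-30c-1, mir-30c-2, mir-7224, mir-23b and mir-148a kept an unadjusted p under 0.05 in all 26 repeats each. Precursors regulated by p and fold numbered 14, but 7 with DESeq2, 8 with at least 10 reads in every library, 40 with at least 1 read in any library and 52 without a fold limit. Moved precursors numbered 50, but 76 with at least 1 read in any library and 32 with the cortical marker level as a covariate. At an adjusted p under 0.05 there was no precursor, but 3 with DESeq2, 2 with library size only, 5 with library quality weights and 2 with effects averaged over 1 mean per group; mir-30c-1 and mir-30c-2 were among them each time. For the interaction 1 precursor passed, mir-206, and 2 with DESeq2 and with the cortical covariate, which was added after the data were seen. Leaving out 1 library at a time, with the 500 precursors held fixed, gave 9 to 18 regulated, 35 to 63 moved, 0 to 2 at an adjusted p under 0.05 and 0 to 2 for the interaction. The count of 9 came without stressed male pool 2; mir-669c passed without stressed male pool 1, mir-23a without nonstressed female pool 3, and both mir-30c copies without nonstressed female pool 1. Replicate numbers recur in all groups. Whether they pair the pools is not known: correlations of deviations between pools of one number were -0.02 to 0.26 in males and 0.13 to 0.31 in females, and 4 of 6 stressed pools lay closest to the nonstressed pool of their number. They were not treated as paired, as 2 male pairs were under 0.1. With the replicate number as a block within sex, 14 were regulated, 61 moved, 0 passed the adjusted p and 1 the interaction, and with a block shared by both sexes the counts were 15, 62, 5 and 1. The block within sex moved the count at an unadjusted p under 0.05 from 40 to 46 in females and from 62 to 83 in males. The causes of these shifts were not tested. A mean under 10 reads was found for 53 of the 500 tested, where fold changes rest on few reads.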

Other observations

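Several miRs that are known as abundant in brain, blood vessels or blood were absent or nearly so from the deposited counts. The paper lists miR-451a among the miRs higher in stressed males, so a 0 here does not show that a miR was missing from the samples. mir-338 and its partner mir-3065, mir-451a and mir-451b, mir-486, mir-30e and mir-30f were listed at 0 in all 12 libraries, and mir-126a (9 reads in all), mir-219a-1 (1 read) and mir-219a-2 (1 read) were near 0. Over the file, 284 of 1180 precursors were listed at 0 throughout. Of 40 precursors whose hairpin overlaps another listed hairpin in RefSeq's positions, 34 (85.0%) were at 0 in all libraries, beside 193 of 909 (21.2%) without such an overlap. The markers of endothelium, oligodendrocytes and red blood cells fell largely among them, so these lists held 0 to 3 tested members.

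mir-206, a miR of skeletal muscle, was the precursor whose effect differed between the sexes at an adjusted p under 0.05 (interaction -1.80 on the log2 scale, adjusted p = 0.0131, limma). It was chosen here after its values were seen. It held 67.8, 73.4 and 48.0 CPM in nonstressed and 165, 139 and 111 CPM in stressed males, and 188, 260 and 162 CPM in nonstressed and 97.6, 147 and 146 CPM in stressed females. Both sexes were separated, in opposite directions, and the estimate over both sexes was 0.16 (adjusted p = 0.854, limma).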
